A study of Sus scrofa with 8 samples.

Results

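The let-7 family of porcine milk exosomes is described here across 8 small RNA libraries. Its members were taken as all inserts of 18 to 26 nt, freed of the 3′ adaptor, whose nt 1 to 8 were those of let-7a-1-5p. These were 1643 of 1609954 kinds of insert, a kind being a distinct sequence. They held 368507 of 31322051 counts, 84.4% of them in 1 colostrum library, 0d-3, where the family made up 2.24% of the inserts. In the other 7 libraries it made up 0.197% to 0.484%. Members were told apart by their first 18 nt, which gave 357 groups. Of these, 7 reached 1% of the family counts in at least 1 library, and the other 350 groups held 9269 counts together. The group with the first 18 nt of let-7a-1-5p was further split at nt 19, so that 8 members are described.

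The milk came from 3 healthy Yorkshire sows at their second birth, with no treatment, and the exosomes were precipitated with ExoQuick. Colostrum was covered by 3 libraries at 0 days after birth, each from the RNA of a single sow and named 0d-1 to 0d-3, and by 1 library at 3 days (3d). Mature milk was covered by 1 library each at 7, 14, 21 and 28 days (7d, 14d, 21d and 28d). The RNA of the sows was pooled for every library after 0 days, so that each of these stages was 1 sample and stages stood in as replicates of colostrum (n = 4) and mature milk (n = 4). Milk class and pooling therefore overlapped, since 3 of the 4 colostrum libraries were of single sows and all 4 of mature milk were pools. Precipitation does not separate exosomes from other particles of milk, and vesicle markers cannot be read from small RNA. Fewer let-7 molecules per exosome and fewer exosomes cannot be told apart in such data.

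let-7 is a family of highly conserved miRNAs that share the seed, nt 2 to 8, with which a miRNA pairs to its target mRNAs. Its genes give several precursors whose mature 5p strands differ in a few bases outside the seed. The family is known for restraining proliferation and for marking differentiated tissues, and its known targets include RAS and HMGA genes and LIN28, which in turn blocks let-7 maturation. Several members, some with the same mature sequence, come from genes that lie close together on a chromosome. Of the 9 genes named let-7 and the 1 miR-98 gene in the RefSeq annotation of the pig (Sscrofa11.1), MIRLET7F-2 lay within 10 kb of both MIRLET7A-2 and MIRLET7D, and MIR98 within 10 kb of MIRLET7F-1.

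The commonest tag of each member is shown because the members are defined by these bases. The seed (nt 2 to 8) is in capitals. Groups other than let-7a-1-5p are named by their substitutions within the sequence that groups them, with the base of let-7a-1-5p first and positions counted from 1 at the 5′ end. No catalogue of mature pig miRNAs was used, so that these groups carry no letter of the family.

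let-7a-1-5p: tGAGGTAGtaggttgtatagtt
A19G group: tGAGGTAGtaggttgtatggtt
A17G group: tGAGGTAGtaggttgtgtggtt
G12T/T18C group: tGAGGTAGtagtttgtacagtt
G12A group: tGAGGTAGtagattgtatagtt
G12T/A17G/T18C group: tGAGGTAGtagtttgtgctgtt
G11A group: tGAGGTAGtaagttgtattgtt
T9G group: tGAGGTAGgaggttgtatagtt

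All 8 tags were 22 nt long and were found in all 8 libraries. They differed from let-7a-1-5p only at positions 9, 11, 12, 17, 18 and 19, and nt 13 to 16 and 20 to 22 were the same in all of them. The A17G tag also carried A19G, and the tags of the G12T/A17G/T18C and G11A groups also carried A19T. The A19G and let-7a-1-5p tags share their first 18 nt, and both together are called the let-7a group below.

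A tag with the same seed and another first base fell outside the family as taken here. It is shown because it differed from let-7a-1-5p only by T1A and T16C, and it was the commonest such tag in every library. Its group of 18 nt came to between 0.733% (21d) and 1.36% (0d-3) of its own counts plus those of the family.

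T1A/T16C tag: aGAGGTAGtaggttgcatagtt

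One library, 0d-3, stood apart before any comparison. Inserts of 18 to 26 nt made up 76.2% of its reads and 3.35% (7d) to 18.2% (0d-2) of the reads of the others. Its miR-148a-3p, the leading miRNA of milk, was at 227 counts per 1000000 inserts, against 44762 (3d) to 114683 (21d) elsewhere. It supplied 310979 of the family counts, or 84.4%, so that the shares of members are given within each library and not from pooled counts. The reads of 7d and 21d, both mature milk, were 36 nt long and all others 40 nt. Read length and milk class therefore overlapped in part. The methods name no step in which 0d-3 was handled apart from the other libraries of 0 days. The fold changes, several class differences and the leader comparisons below are also given without it.

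The family took a small share of the inserts in 7 libraries and a far larger one in 0d-3. It held 10399 counts or 0.321% of the inserts in 0d-1, 14690 or 0.335% in 0d-2, 310979 or 2.24% in 0d-3 and 3242 or 0.197% in 3d. In mature milk it held 2828 counts or 0.352% in 7d, 6847 or 0.283% in 14d, 6233 or 0.484% in 21d and 13289 or 0.365% in 28d. The other 3 colostrum libraries lay among or below the mature milk libraries on this total. Relative to the counts of the 13 miRNAs whose sequences the study lists, which include let-7a-1-5p, the family came to 3.82%, 3.57%, 10.1% and 3.06% in 0d-1, 0d-2, 0d-3 and 3d. The same ratio was 2.77%, 3.85%, 2.90% and 4.04% in 7d, 14d, 21d and 28d. On either scale 0d-3 was the highest library, and the order of the others changed with the total used. Of the inserts that do not begin with 1 of 4 common 5 nt leaders, described below, the family held 1.04% in 0d-1 and 1.08% in 0d-2, above the 0.787% (7d) to 0.948% (28d) of mature milk. 3d, at 0.744%, was below them, so that the classes overlapped on each of the 3 totals. All 3 totals leave let-7 reads behind a leader out of the family counts. Counted with a let-7 part of 18 to 23 nt, these came to 18667 in 0d-1, 31905 in 0d-2, 88 in 0d-3 and 6222 in 3d. In mature milk they came to 568 in 7d, 11847 in 14d, 1999 in 21d and 26726 in 28d. Their part in the distance of 0d-3 from the other libraries was not tested.

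**Figure D1:**
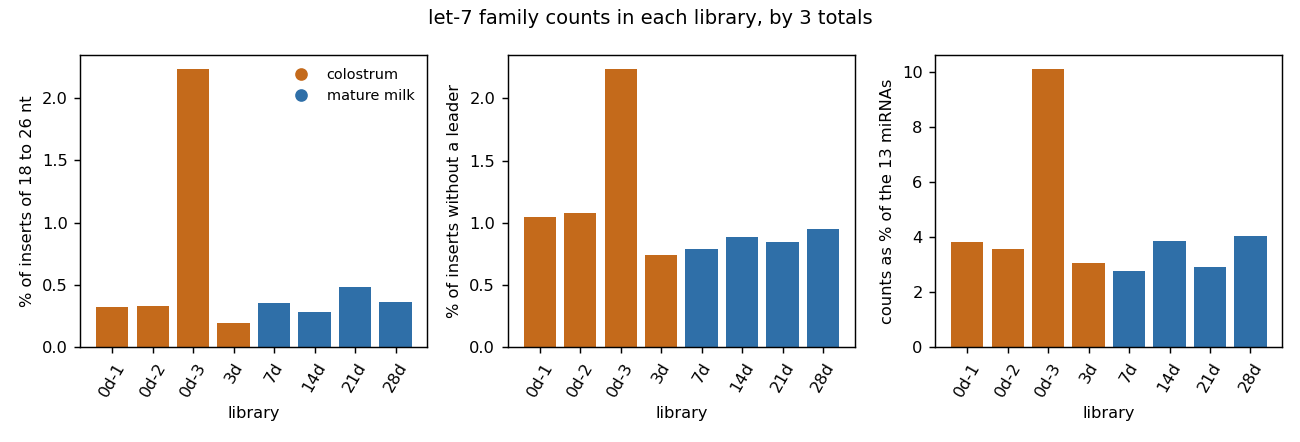
Bars give the let-7 family counts of each library (x axis) in percent of all inserts of 18 to 26 nt, of inserts that do not begin with 1 of 4 common 5 nt leaders, and of the counts of the 13 miRNAs, with colostrum in orange and mature milk in blue. 0d-3 is the highest library in each panel (2.24%, 2.24% and 10.1%), and the other 7 libraries lie between 0.744% and 1.08% in the middle panel. The family counts leave out let-7 reads behind a leader.

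All small RNA units of the libraries, which are tags grouped by 18 nt, were tested between colostrum and mature milk. Each let-7 group was again highest in 0d-3. With TMM scaling the let-7a group stood at 839, 880, 31785 and 1968 normalized counts per 1000000 in 0d-1, 0d-2, 0d-3 and 3d. It stood at 1145, 730, 1914 and 1051 in 7d, 14d, 21d and 28d. Only 0d-3 lay far above the rest, and 3d was the only other colostrum library above every mature milk library in this group. For the A17G, G12T/T18C and G12T/A17G/T18C groups 3d lay below 21d. The log2 fold change of colostrum over mature milk in edgeR's quasi-likelihood test was 2.87 (SE 1.94) for the let-7a group, with a Benjamini-Hochberg adjusted p of 0.975. The G12A group was at 2.63 (SE 1.85) and the A17G group at 2.37 (SE 1.90). The T9G group, at 4.30, had reached 1% of the family in 0d-3 alone, a colostrum library, so that its value follows in part from how it was chosen and is given as a description. None of the 7 let-7 groups passed the test, beside 0% of the 15212 units tested. Of those units 260 had an unadjusted p under 0.05 in edgeR. DESeq2 called 46 among the units to which it gave a p, all lower in colostrum, and this direction leaves out units without one. DESeq2 gave no p for 6 of the 7 let-7 groups, and the G11A group, the only one it tested, had an adjusted p of 0.667.

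The fold changes rested on 0d-3 and cover only let-7 reads without a leader, which 0d-3 almost lacked. Without it the let-7a group was at a log2 fold change of 0.19 (SE 0.53), the A17G group at 0.14 and the T9G group at 0.38, all with an edgeR adjusted p of 0.9999. Of 15492 units 0% were called in either direction, 3549 had an unadjusted edgeR p under 0.05, and the lowest adjusted p was 0.132. The median log2 fold change of all units was 0.30 in that fit, above the values of the let-7a and A17G groups. With all 8 libraries it was -0.33 with TMM, -0.44 with library size alone and 0.27 with the RLE scaling. The size of the let-7 fold changes also moved with the scaling. The let-7a, A17G and G12A groups were at log2 fold changes of 1.26, 0.86 and 1.005 with library size alone, and at 2.37, 1.94 and 2.14 with RLE. With tags seen more than 10 times alone they were at 1.20, 0.91 and 0.83.

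Within the family, the A17G group, the let-7a-1-5p tags and the A19G group led every library in that order.
The A17G group made up 41.3%, 43.6%, 33.3% and 38.1% of the family in 0d-1, 0d-2, 0d-3 and 3d, and 40.8%, 43.6%, 41.0% and 38.9% in 7d, 14d, 21d and 28d. let-7a-1-5p made up 22.4%, 22.6%, 29.6% and 24.6% in the colostrum libraries in the same order, and 22.5%, 22.4%, 23.3% and 24.4% in mature milk. 0d-3 was the lowest library for the A17G group and the highest for let-7a-1-5p, and the classes overlapped for both.

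The A19G group, which differs from let-7a-1-5p by 1 base, held 18.01%, 17.7%, 18.9% and 19.2% of the family in 0d-1, 0d-2, 0d-3 and 3d. It held 18.2%, 17.8%, 16.9% and 15.9% in 7d, 14d, 21d and 28d. It was the steadiest of the 3 leading members in colostrum, and 28d was its lowest library. Within the let-7a group, the share of tags with A at nt 19 was 55.1% (7d) to 57.6% (21d) in 6 libraries, 60.3% in 28d and 61.0% in 0d-3.

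The step from the A17G group to let-7a-1-5p was 16.1 ± 5.71 percentage points (SD, n = 8) and that from let-7a-1-5p to the A19G group was 6.16 ± 2.30, each in the same direction in 8 of 8 libraries. The A19G group was above the next member, the G12T/T18C group, by 11.9 ± 1.42 points in 8 of 8. The following members could not be ordered in the same way. The G12T/T18C group was above the G12A group in 6 of 8 libraries (1.23 ± 1.503 points), and the G12A group above the G12T/A17G/T18C group in 5 of 8 (0.0518 ± 1.61 points). These differences were within the spread over libraries.

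The G12A group varied most among the middle members. It took 4.22%, 3.44%, 5.03% and 5.49% of the family in 0d-1, 0d-2, 0d-3 and 3d, and 3.36%, 3.55%, 5.15% and 7.46% in 7d, 14d, 21d and 28d. The last value was the highest and the classes overlapped. The G12T/T18C group stayed between 4.90% (0d-3) and 6.93% (21d), and the G12T/A17G/T18C group between 4.04% (0d-3) and 5.16% (7d). The G11A group came to 0.363% in 0d-3 and to 0.850% (28d) to 1.51% (3d) elsewhere.

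**Figure D2:**
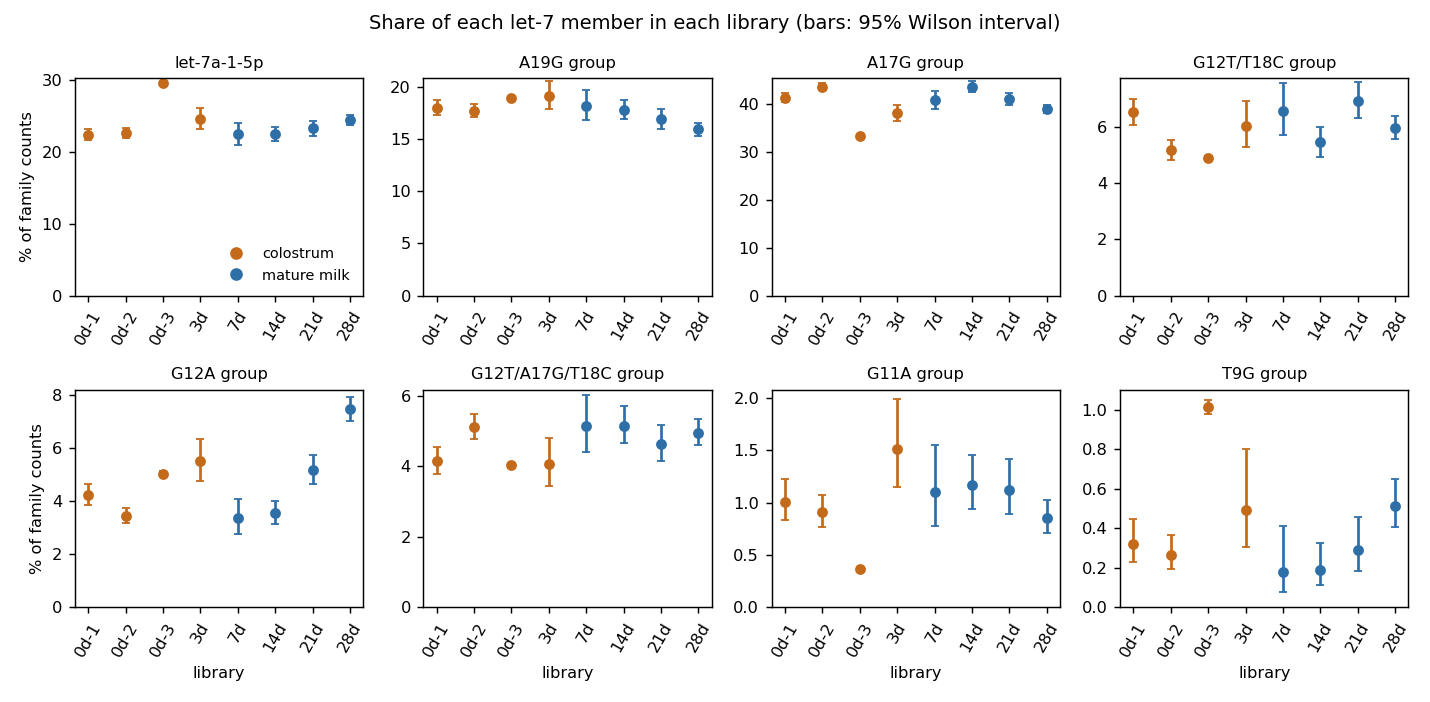
Points give the percent of the let-7 family counts (y axes, each from 0) held by each of the 8 members in each library (x axes), with colostrum in orange, mature milk in blue and bars for the 95% Wilson interval, which covers counting error only. let-7a-1-5p is highest in 0d-3 (29.6%), the A17G group lowest there (33.3%), and the other 7 libraries lie closer together in both panels.

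No member's share of the family passed the threshold of 0.05 between colostrum and mature milk in an exact two-sided permutation test over the 70 assignments of 4 and 4 libraries, in 9 tests of shares. The smallest p this design allows is 0.0286. The let-7a group held 43.3% ± 3.86 (SD, n = 4) in colostrum and 40.5% ± 0.220 (n = 4) in mature milk, exact permutation p = 0.229, and without 0d-3 the difference of 2.81 points was 1.05. let-7a-1-5p held 24.8% ± 3.36 and 23.2% ± 0.915 (n = 4 each, exact permutation p = 0.457), and the difference of 1.67 points was 0.0637 without 0d-3. The A17G group held 39.1% ± 4.46 and 41.0% ± 1.92 (n = 4 each, exact permutation p = 0.486), and the difference of -1.96 points was -0.0432 without 0d-3. The lowest p was that of the G12T/A17G/T18C group, with 4.34% ± 0.519 in colostrum and 4.98% ± 0.247 in mature milk (n = 4 each, exact permutation p = 0.0857). 0d-2, at 5.12%, was its only colostrum library within the range of mature milk, and without 0d-2 the difference was -0.893 points. Leaving out the only overlapping library fixes the exact permutation p at the smallest possible, 0.0286, so that this p decides nothing. Without 0d-3 the difference was -0.533 points with an exact permutation p of 0.2. The ranges of the 2 classes overlapped for every member.

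The T9G group was 1.01% of the family in 0d-3 and 0.177% (7d) to 0.512% (28d) elsewhere, the lowest of these resting on 5 counts. Some tags that differ from the A17G group by a single T-to-G change were also most frequent in 0d-3. The changes T9G, T13G and T16G came to 0.640%, 0.594% and 0.522% of the counts of the A17G group and its variant in 0d-3, and to at most 0.0193% in any other library. T18G, another such change, was 0.191% of the family in 0d-3 (595 counts), 0.0527% in 28d (7 counts) and at most 0.0136% elsewhere. The change T14G was at 0.0444% in 0d-3, with a 95% Wilson interval of 0.0333% to 0.0592% that overlapped those of other libraries. The T13G change of the let-7a group, with 1070 counts, was 0.344% of the family in 0d-3. It had 0 counts in the other 7 libraries, which allows shares of up to 0.0204% (0d-2) to 0.106% (7d). The part of such single-base variants in the T9G group of 0d-3 was not tested. In the other libraries the T9G group was at 0.431% (7d) to 1.25% (28d) of its own counts plus those of the let-7a group, above the level of the T-to-G variants there, with 95% Wilson intervals that overlapped in 7d alone.

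The members also differed in their 3′ ends, and for the 3 leading members the main lengths kept their order in all libraries, apart from those of 21 and 23 nt in the A19G group. Over 8 libraries, 71.9% ± 2.59 (SD) of the let-7a-1-5p tags were 22 nt long, 15.8% ± 1.45 were 21 nt and 10.98% ± 1.64 were 23 nt. The A19G group was more uniform, with 89.2% ± 1.21 at 22 nt, 5.01% ± 1.53 at 21 nt and 5.11% ± 0.997 at 23 nt. The A17G group was the most spread of the leading members, with 56.7% ± 1.52 at 22 nt, 23.2% ± 2.29 at 23 nt, 9.71% ± 0.857 at 21 nt and 6.62% ± 1.87 at 20 nt, where 0d-3 was lowest at 2.60%. For these 3 members no library of one overlapped any library of another at 22 nt, since they ranged from 69.1% to 77.4%, from 87.6% to 91.0% and from 55.1% to 59.2%.

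Among the rarer members the G12T/T18C group was nearest the A19G group at 22 nt, with 85.6% ± 2.74 (SD, n = 8) of its tags. Its mean at 21 nt was higher, 9.27% ± 2.78 against 5.01% ± 1.53 for the A19G group. The G12A group resembled let-7a-1-5p, with 71.2% ± 5.06 at 22 nt, 14.2% ± 4.18 at 21 nt and 11.8% ± 2.02 at 23 nt. The G12T/A17G/T18C group had 62.4% ± 4.13 at 22 nt and 21.0% ± 5.14 at 23 nt, and its 23 nt share was highest in 0d-3 at 30.9%. The G11A group had the largest mean share at 21 nt, 21.7% ± 5.79. The T9G group ranged from 38.5% to 71.3% at 22 nt, with 5 to 68 counts in every library but 0d-3.

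**Figure D3:**
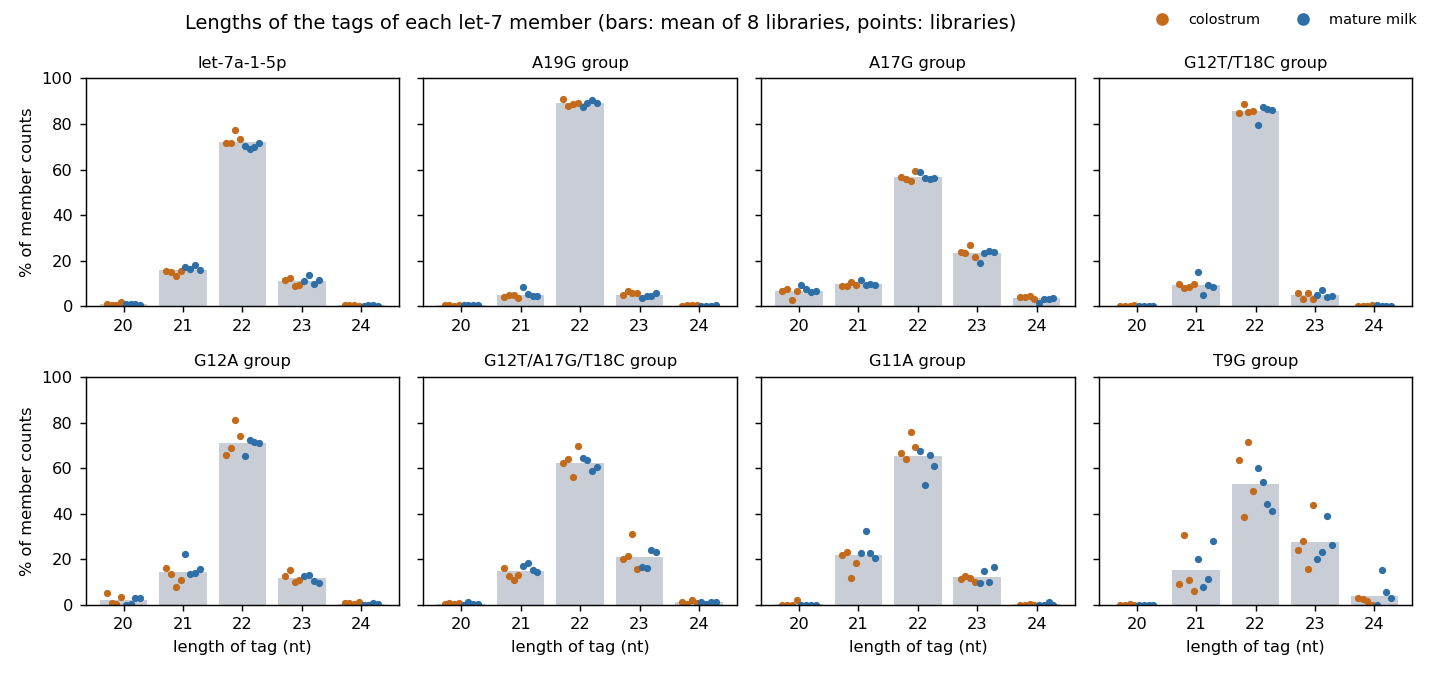
Gray bars give the mean over 8 libraries, and points the single libraries (colostrum in orange, mature milk in blue), of the percent of each member's counts (y axis) in tags of 20 to 24 nt (x axis). The 22 nt bar is at 89.2% for the A19G group, 71.9% for let-7a-1-5p and 56.7% for the A17G group, where the 23 nt bar reaches 23.2%.

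The tags of let-7a-1-5p and the A19G group that make up these lengths are shown because they differ by 1 base and occur in other proportions. Capitals mark the seed.

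let-7a-1-5p, 21 nt: tGAGGTAGtaggttgtatagt
let-7a-1-5p, 22 nt: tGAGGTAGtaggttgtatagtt
let-7a-1-5p, 23 nt with A: tGAGGTAGtaggttgtatagtta
let-7a-1-5p, 23 nt with T: tGAGGTAGtaggttgtatagttt
A19G group, 21 nt: tGAGGTAGtaggttgtatggt
A19G group, 22 nt: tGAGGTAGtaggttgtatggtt
A19G group, 23 nt with A: tGAGGTAGtaggttgtatggtta
A19G group, 23 nt with T: tGAGGTAGtaggttgtatggttt

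The 23 nt forms with A and T made up 8.23% ± 1.10 and 2.21% ± 0.718 (SD, n = 8) of let-7a-1-5p, and 2.18% ± 0.536 and 2.60% ± 0.637 of the A19G group. The 21 nt form was commoner for let-7a-1-5p than for the A19G group in every library. Among tags of 21 and 22 nt it made up 17.5%, 17.5%, 14.6% and 17.3% of let-7a-1-5p in 0d-1, 0d-2, 0d-3 and 3d, and 19.5%, 18.9%, 20.6% and 18.2% in 7d, 14d, 21d and 28d. For the A19G group it made up 4.05%, 5.23%, 5.38% and 3.98% in the colostrum libraries and 8.89%, 5.55%, 4.70% and 4.70% in those of mature milk. The lowest let-7a-1-5p library lay above the highest A19G library. The mean difference was 12.7 ± 2.05 percentage points (SD, n = 8, higher in 8 of 8), with an exact paired permutation p of 0.0078, the smallest that 8 libraries can give. This pair was compared after its values had been seen.

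The base that followed the 22nd nucleotide differed between the members as well. In let-7a-1-5p tags of 23 nt or more it was A in 77.9% ± 4.14 (SD, n = 8) and T in 20.0% ± 4.39. In the A17G group it was T in 74.7% ± 5.70 and A in 22.7% ± 5.54 (n = 8), with A highest in 0d-3 at 35.4%. Their ranges for A, 72.1% to 82.7% and 18.95% to 35.4%, did not overlap. The A19G group lay between, with A in 44.2% ± 6.93 and T in 53.9% ± 6.31 over the 7 libraries with at least 20 such tags. The G12A group was at 75.7% ± 6.83 for A (n = 7) and the G12T/A17G/T18C group at 60.4% ± 6.39 (n = 8). No hairpin sequences were used, so that a base copied from the gene and one added later cannot be told apart.

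Against the 5 other listed miRNAs whose sequence is 22 nt, the let-7a group was the less uniform in 4 cases. It had 79.2% ± 1.42 (SD, n = 8) of its tags at 22 nt. miR-148a-3p had 99.5% ± 0.322, miR-25-3p 94.6% ± 0.818, miR-375-3p 94.2% ± 1.99 and miR-574-3p 89.6% ± 1.54, each above the let-7a group in 8 of 8 libraries. miR-191-5p had 44.3% ± 2.11 and was below it in 8 of 8. Each of the 5 exact paired permutation tests gave an unadjusted p of 0.0078 (n = 8), the smallest possible. The let-7a group here mixes the let-7a-1-5p and A19G tags.

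In reads without a leader, the 22 nt share of the let-7a group was slightly higher in colostrum. It was 80.3%, 78.7%, 81.8% and 80.4% in 0d-1, 0d-2, 0d-3 and 3d, and 77.9%, 77.9%, 78.4% and 78.3% in 7d, 14d, 21d and 28d. The classes did not overlap, with 0d-2 and 21d next to each other. The means were 80.3% ± 1.26 and 78.2% ± 0.266 (SD, n = 4 each), a difference of 2.15 points. The exact permutation p was 0.0286, the smallest possible, and was not adjusted for the 10 such comparisons of the milk classes. Without 0d-3 the difference was 1.66 points with the same exact permutation p, 0.0286. With tags taken by their first 20 nt, which leaves let-7a-1-5p without the A19G group, the difference was 3.32 points (n = 4 each, exact permutation p = 0.0286). let-7a-1-5p was at 71.7%, 71.6%, 77.4% and 73.6% in colostrum (0d-1, 0d-2, 0d-3 and 3d) and at 70.3%, 69.1%, 70.1% and 71.5% in mature milk (7d, 14d, 21d and 28d), with no overlap. The A19G group was, in the same order, at 91.0%, 87.8%, 88.7% and 89.4% in colostrum and at 87.6%, 89.4%, 90.6% and 89.0% in mature milk, so that its classes overlapped. Among all 123 units with at least 100 counts in each library, 9.76% had colostrum above mature milk in the share of 22 nt tags with no overlap. That was 12 units, and 6 others had colostrum below mature milk with no overlap. The exact permutation p was 0.0857 with tags seen more than 10 times alone, where the difference was 1.43 points. Among the libraries of 40 nt reads (n = 4 and 2) the difference was 2.16 points with an exact permutation p of 0.2, where the smallest possible is 0.0667, so that the threshold could not be passed. With all read lengths, the exact permutation p was 0.0571 without 7d, without 14d, without 21d or without 28d, with differences of 2.07 to 2.24 points. Behind a leader the classes overlapped. There 21 nt tags made up 41.5%, 38.3% and 39.8% of the let-7a-1-5p tags of 21 and 22 nt in 0d-1, 0d-2 and 3d. The same share was 53.3%, 42.2%, 51.2% and 37.7% in 7d, 14d, 21d and 28d, and 0d-3 had only 8 such tags.

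Many let-7 reads carried 5 extra bases before the first base of the miRNA, and these reads are mostly too long for the window of 18 to 26 nt. The extra bases were taken as a leader where they were 1 of the 4 commonest inserts of 5 nt in these libraries. By falling counts these were CGTGA, followed by AAGCT, followed by TCAAG and lastly GATCT. Leaders stood before 64.7%, 69.0%, 0.0288% and 66.1% of the let-7 reads of 0d-1, 0d-2, 0d-3 and 3d, counted with a let-7 part of 18 to 23 nt. They stood before 16.8%, 63.8%, 24.6% and 67.2% in 7d, 14d, 21d and 28d. The 2 libraries of 36 nt reads were low and 0d-3 had almost none, with 88 such reads. In 3d most leaders were TCAAG (70.7%) or GATCT (23.1%), whereas CGTGA and AAGCT together led in the other libraries. The origin of the leaders was not determined.

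let-7a-1-5p was among the listed miRNAs most often found behind a leader. Over the 7 libraries other than 0d-3, a leader stood before 56.3% ± 23.1 (SD) of the let-7a-1-5p reads, with 19.03% in the lowest library and 72.4% in the highest. It stood before 1.96% ± 1.24 of the miR-148a-3p reads, 10.6% ± 6.40 of those of miR-25-3p and 30.7% ± 15.3 of those of miR-30c-5p. The share of let-7a-1-5p was above that of 10 of the 12 other listed miRNAs in 7 of 7 libraries, each with an unadjusted exact paired permutation p of 0.0156, the smallest possible. miR-21-5p was higher than let-7a-1-5p (72.4% ± 22.4, n = 7, let-7a-1-5p higher in 1 of 7, exact paired permutation p = 0.0312), and miR-27b-3p was at 56.6% ± 20.1 (n = 7, mean difference -0.357 points, SD 6.90, exact p = 0.875). Among the other members, the means of the T9G (79.2%), G12A and G12T/A17G/T18C groups were above that of let-7a-1-5p. Those of the G12T/T18C, A17G (40.6%), G11A and A19G (35.2%) groups were below it. Counts of plain reads therefore leave out a larger part of let-7 than of miR-148a-3p.

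The members were not equally often behind a leader, so that the family looked different in these reads. Over 7 libraries without 0d-3, the A17G group made up 22.3% ± 1.14 of the let-7 reads with a leader and 40.3% ± 2.08 (SD) of those without. The A19G group fell from 17.9% ± 1.02 to 7.36% ± 1.03. let-7a-1-5p was at 27.4% ± 2.73 with a leader and 23.5% ± 0.988 without, and was the first member in place of the A17G group. The G12A group rose from 4.72% ± 1.51 to 15.0% ± 2.19, and the G12T/A17G/T18C group from 4.77% ± 0.471 to 12.8% ± 3.44. The T9G group was at 1.35% ± 0.268 and 0.315% ± 0.140, and the G11A group at 0.581% ± 0.136 and 1.11% ± 0.219. Each of these 7 differences had the same direction in 7 of 7 libraries, with an exact paired permutation p of 0.0156, the smallest that 7 libraries can give. The G12T/T18C group was at 5.63% ± 0.457 and 6.19% ± 0.635 (n = 7, exact paired permutation p = 0.203).

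With the 88 reads of 0d-3 included, let-7a-1-5p no longer passed the test (1.52 ± 7.11 points, n = 8, exact paired permutation p = 0.602), and the 6 other members kept their direction with p of 0.0391 or less. All comparisons of reads with a leader were made after the leaders had been seen.

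**Figure D4:**
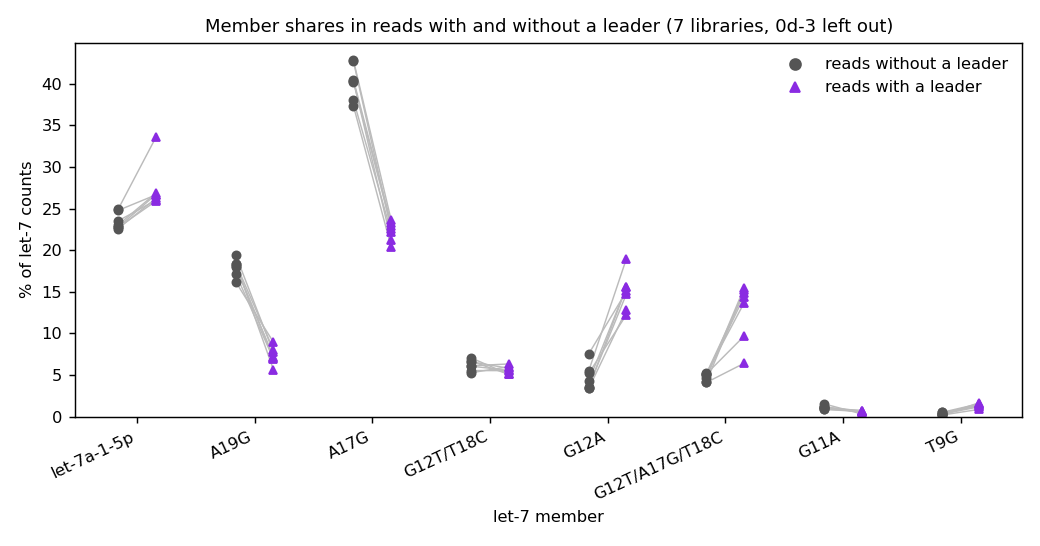
For each let-7 member (x axis), circles give its percent of the let-7 counts (y axis, from 0) in reads without a leader and triangles that in reads with a leader, with a line joining the 2 values of each of 7 libraries (0d-3 is left out). The lines of the A17G and A19G groups fall in every library (means 40.3% to 22.3% and 17.9% to 7.36%), and those of the G12A and G12T/A17G/T18C groups rise.

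The leader itself went with the mix of members. The G12T/T18C group made up 14.7% ± 2.32 (SD, n = 6 libraries with at least 100 such reads) of the let-7 reads behind GATCT and 2.36% ± 0.799 (n = 6) of those behind TCAAG, and its lowest library with the first was above its highest with the second. The G12T/A17G/T18C group made up 19.8% ± 4.502 (n = 7) behind CGTGA and 11.2% ± 1.99 (n = 7) behind AAGCT. let-7a-1-5p was highest behind TCAAG (32.4% ± 3.497, n = 6). These values are a description with no test.

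The shorter 3′ end of let-7a-1-5p was also seen behind a leader. Among tags of 21 and 22 nt, 43.4% ± 6.24 (SD) of let-7a-1-5p and 28.9% ± 6.69 of the A19G group were of 21 nt over the 7 libraries other than 0d-3 (difference 14.5 ± 3.48 points, 7 of 7, exact paired permutation p = 0.0156). Both members were shorter behind a leader than in the plain reads of the same libraries, where they were at 18.5% ± 1.22 and 5.30% ± 1.68. The part of read length in these values was not tested.

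When reads with and without a leader were added up, the means of the leading members kept their order, with 30.9% ± 4.14 (SD, n = 8) for the A17G group, 26.2% ± 2.70 for let-7a-1-5p and 13.3% ± 3.09 for the A19G group. The G12A group then came to 9.77% ± 3.60 and the G12T/A17G/T18C group to 8.49% ± 3.09, above the G12T/T18C group at 5.87% ± 0.533. Single libraries departed from the order of the means. In 3d let-7a-1-5p, at 30.6%, lay above the A17G group, at 26.2%. The A19G group lay below the G12A group in 0d-2, 3d and 28d, and below the G12T/A17G/T18C group in 0d-2, 14d and 28d. The G12T/T18C group lay above the G12T/A17G/T18C group in 0d-3, 3d and 7d, and above the G12A group in 7d. No share passed an exact permutation test between colostrum and mature milk in these combined reads either (n = 4 each), the lowest p being 0.0857 for let-7a-1-5p.

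Among the other listed miRNAs and let-7 groups, miR-25-3p, miR-30c-5p and miR-574-3p had the counts per 1000000 inserts most like those of the let-7a group over the 8 libraries. Spearman's rho was 0.976 for each, and 0.964 over the 7 libraries without 0d-3. The libraries share their total and their leaders, which enter every one of these values, so that this is a description only. miR-148a-3p had a rho of 0.262 over 8 libraries and 0.893 without 0d-3.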

How the data were processed

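For each library the authors deposited a table that lists each distinct read once with its raw count. These deposited counts were not scaled, and the 3′ adaptor is still on the reads. Depth was 14590531 (14d) to 28141425 (28d) reads. The adaptor was removed where its first 8 nt matched exactly for the first time, and inserts of 18 to 26 nt without undetermined bases were used. let-7a-1-5p and 12 other miRNAs were recognised by the study's list of sequences. Units (tags grouped by 18 nt) were tested with edgeR 4.0.16 (filterByExpr, TMM, quasi-likelihood, Benjamini-Hochberg adjustment, threshold 0.05) and, as an alternative, DESeq2 1.42.0. On simulated counts for these 15212 units, edgeR recovered 200 of 200 units changed by a log2 value of 4 at a dispersion of 0.1 (16 false calls), and 0 of 200 at the dispersion of these data, 1.43. Shares were compared by exact permutation over libraries. Named members were let-7a-1-5p and every group with at least 1% of the family in any library. The members, lists and comparisons were chosen with earlier results of these data known. Intervals and limits of a count of 0 (3 counts) cover counting error only, since reads of PCR products are not independent molecules. Because stages served as replicates, p-values measure the spread between these libraries. The tests take the libraries as independent and alike, although single sows and pools were mixed and all came from the same 3 sows. The 3p arms and miRNAs transcribed with let-7 genes were not analysed here. Alternatives were other adaptor matches, lengths, tag counts, totals, scalings and read lengths, and leaving out each library.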

Additional observations from a re-analysis of the deposited data

Results flagged for a closer look

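In 8 of 82 sets of 4 libraries of one milk class, 1 library lay far from the other 3 (Dixon's test at the 95% level), and chance flags about 5% of such sets. In colostrum 5 of the 8 came from 0d-3. They were the family's share of inserts (2.24%), its counts relative to the 13 miRNAs (10.1%), the share of A at nt 19 of the let-7a group (61.0%), the 21 nt share of let-7a-1-5p (13.2%) and the share of let-7 reads with a leader (0.0288%). The share of the G12T/A17G/T18C group stood out in 0d-2 (5.12%). In mature milk 7d stood out for the A17G group, with 59.1% of its tags at 22 nt and 18.8% at 23 nt. The reads of 7d were 36 nt long. Those of 21d were too, and there the A17G group was at 55.9% and 24.2%. The part of read length in the values of 7d was not tested.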

How the results depend on the processing

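Of 321 values with a test under an alternative, 291 kept their direction and their side of the threshold, and another 50 had no p-value. Settings chosen after seeing the data were the 40 nt libraries without 0d-3, the inclusion of reads with a leader, and all alternatives for the 21 nt comparison of let-7a-1-5p with the A19G group and for the base at nt 23. Between milk classes, 0 units passed in edgeR in every set that left out 1 library, 46 with DESeq2 and 66 among the 40 nt libraries without 0d-3. That last setting turned the log2 fold changes of the let-7a (-0.12), A17G (-0.14), G12T/T18C (-0.12), G12A (-0.60), G12T/A17G/T18C (-0.32) and T9G (-0.30) groups. It also turned the share differences of let-7a-1-5p (-0.211 points), the G12T/T18C group (0.206) and the G11A group (0.133). Leaving out 1 library gave ranges that crossed 0 for the log2 fold change of the G12A (-0.032 to 3.13) and G12T/A17G/T18C (-0.012 to 2.85) groups and for the shares of the G12A (-0.838 to 0.528 points) and G11A (-0.300 to 0.0827) groups. Without 0d-2 the G12A difference was 0.0359 points, without 28d 0.528, and without 0d-3 that of the G11A group was 0.0827. Including reads with a leader turned the share differences of the A19G (-0.0143 points) and G12A (1.92) groups. The 22 nt share of the let-7a group lost its call with tags seen more than 10 times (1.43 points). In the 40 nt libraries (2.16 points) and in these without 0d-3 (1.67) the smallest possible p is 0.0667 and 0.1, so that no call could be made there. It ranged from 1.66 to 2.69 with 1 library left out. Against miR-148a-3p, miR-574-3p, miR-25-3p, miR-375-3p and miR-191-5p the differences at 22 nt in the 40 nt libraries without 0d-3 were -20.4, -9.73, -15.6, -15.9 and 36.0 points, and the 21 nt difference of let-7a-1-5p and the A19G group was 13.2. There 5 pairs cannot give a p under 0.0625. The mean ratio of the family to the 13 miRNAs was 4.26%. DESeq2 gave 6 of 7 let-7 groups no adjusted p, and T9G was not tested among tags seen more than 10 times. The causes were not tested. Colostrum and mature milk could not be paired by sow, because the RNA of the sows was pooled after 0 days. In the family's groups 4 of 28 pairs of libraries could not be told from sampling noise at an unadjusted chi-square p of 0.05, namely 0d-2 and 14d, 7d and 14d, 0d-1 and 21d, and 0d-1 and 7d (chi-square per degree of freedom 0.846 to 1.89). The other pairs were at 2.47 to 153. Over the 13 miRNAs, whose far higher counts raise this ratio, the 4 pairs were at 48.1 to 372. The test takes reads as independent, which reads of PCR products are not. The depth of 2828 to 6847 family counts in 4 libraries (3d, 7d, 14d and 21d) limits the rare members most.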
